A study of Mus musculus with 24 samples.

Results

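Collagen chain genes were taken as all genes named Col, a number, the letter a and a number, with nothing after it, and 44 of the 51697 named genes of the count table met that rule. By the textbook class of the collagen they encode, they comprised 11 fibrillar, 9 network-forming, 6 beaded-filament and 18 other chains. Enough reads for testing were present for 43 of them in differentiating cells and for 40 in embryonic stem (ES) cells. Col19a1 had at most 14 reads in any library and was tested in neither set. In ES cells Col4a3, Col4a4 and Col10a1 were left untested as well.

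The cells were F123, a hybrid mouse ES line in which the protein CTCF, which binds DNA and anchors chromatin loops, carried an auxin-inducible degron, so that adding auxin leads to loss of the protein. ES cells, kept with LIF, received auxin for 0, 24, 48 or 96 h. Cells put through differentiation toward neural progenitors were harvested on day 2, 4 or 6, either without auxin (controls) or with it. In 2 further groups auxin was washed out of the day 4 or the day 6 cells and harvest followed 2 days later. All 12 groups carried the degron, and auxin-treated cells without it were not analysed here. Each group held 2 libraries. The labels do not say that the 2 came from separate cultures, so p-values measure the spread between these libraries, which may be technical. Auxin acts on the CTCF protein, so the RNA does not check the depletion.

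Collagens are the most abundant structural proteins of the extracellular matrix. Fibrillar collagens such as types I, II, III and V form the load-bearing fibres of connective tissue and cartilage and are made mainly by mesenchymal cells. Type IV chains form the sheet-like network of basement membranes, which early embryonic epithelia and the parietal endoderm lay down in bulk. Type VI chains form beaded microfilaments around cells, and the other chains sit on the surface of fibrils, span cell membranes or join basement membranes to their surroundings.

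Library totals ranged from 24696374 to 72048935 counts, and in ES cells replicate 1 was shallower (24696374 to 29909368) than replicate 2 (51686150 to 61681404). Levels are CPM, the read count relative to the scaled library total, with replicate 1 first, and levels of different genes were compared only per kb of exon length. Changes are log2 fold changes with their standard error (SE). A gene was called at an adjusted p below 0.05 in edgeR's quasi-likelihood test, with Benjamini-Hochberg adjustment across every gene in the fit. The 16 differentiation libraries and the 8 ES libraries were fitted apart, since the common dispersion was 0.0051 in the former and 0.134 in the latter. With all 24 libraries in 1 fit, which lets the ES spread enter, fewer calls remained in differentiating cells and more were made in ES cells, and their number is given beside each comparison. Each member called between 2 groups in these fits had libraries that did not overlap between them. In bulk RNA, fewer cells of a type and less RNA per cell cannot be told apart.

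The basement membrane pair Col4a1 and Col4a2 dominated the collagen RNA. Per kb of exon, their joint share of the summed level of all 44 genes ran from 60.9% in day 2 control replicate 2 to 94.3% in day 4 auxin replicate 1. Fibrillar chains made up 1.10% to 12.2% of that sum, and beaded chains 0.145% to 1.72%. By highest group mean per kb, the leading fibrillar chains were Col1a1 (51.4 CPM per kb), Col3a1 (50.7) and Col5a1 (17.7), each in the day 6 washout group. Leading network chains were Col4a1 (794 CPM per kb) and Col4a2 (534) in day 4 auxin cells, followed by Col4a5 (4.65) in the day 6 washout group. Among the remaining chains Col18a1, a basement membrane collagen whose end fragment is endostatin, reached 69.0 CPM per kb in 0 h ES cells. Col9a2, a chain of the type IX collagen that coats cartilage fibrils, reached 38.7 CPM per kb in day 2 auxin cells.

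**Figure D1:**
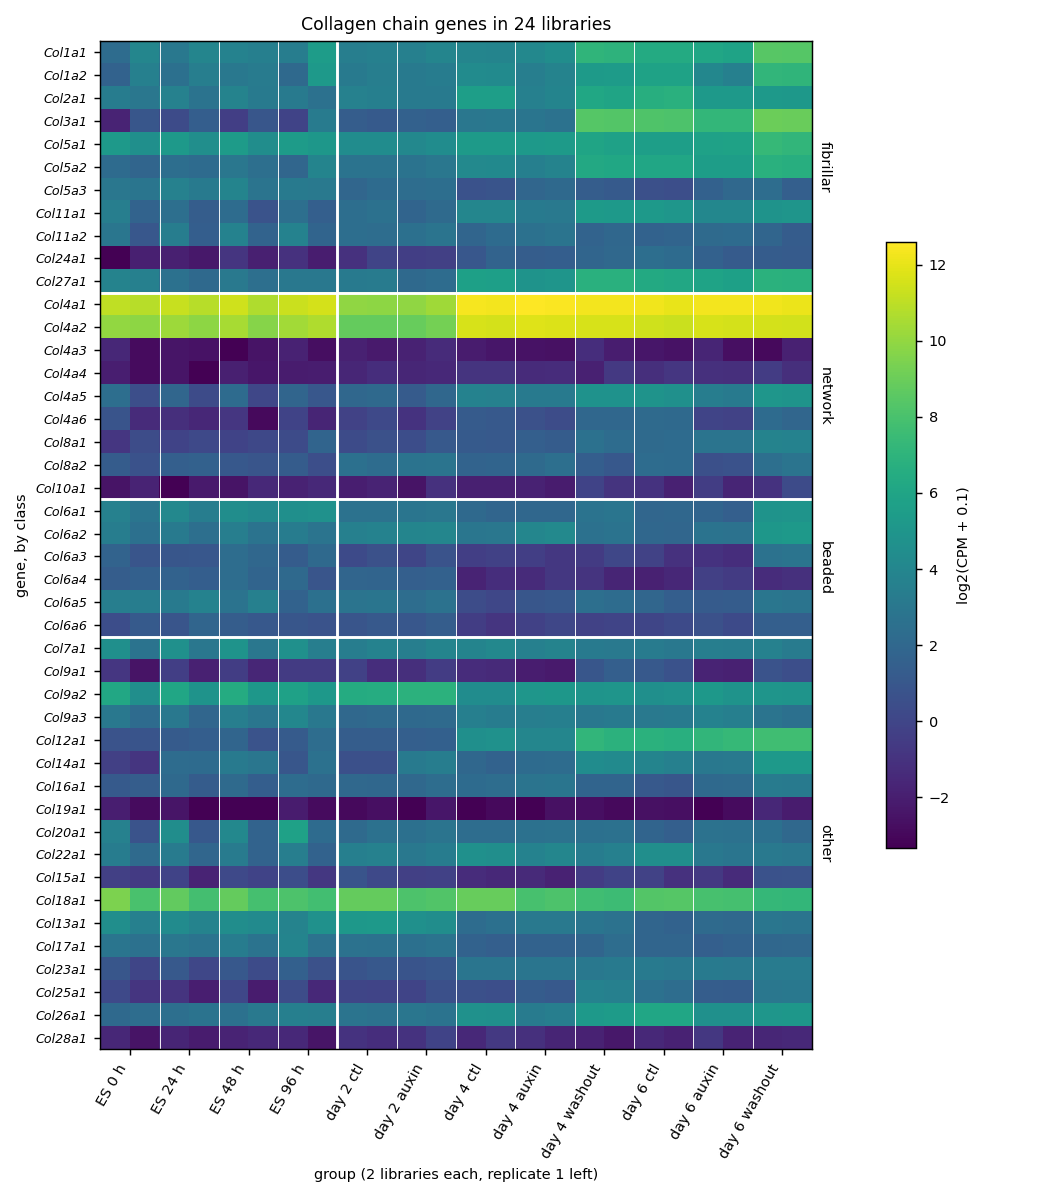
Level of each of the 44 collagen chain genes (vertical axis, by class) in each of 24 libraries (horizontal axis, by group, replicate 1 left), as log2(CPM + 0.1) by colour. Col4a1 and Col4a2 are brightest in every library, and the fibrillar chains Col3a1, Col1a1 and Col1a2 are at their brightest in the day 6 washout group.

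The first question was how collagen chains changed in control cells as differentiation went on. From day 2 to day 4, 23 of the 43 tested members rose, against 27.2% of all genes tested, and 12 fell, against 24.8%. The members' median log2 fold change was 0.42, beside 0.01 for all genes. From day 4 to day 6, 20 rose (all genes 13.6%) and 6 fell (all genes 13.1%), with a median of 0.30 beside −0.005. With all 24 libraries fitted together, 23 of the 35 day 4 calls and 12 of the 26 day 6 calls remained. From 0 h ES cells to day 2, tested on all 24 libraries, 4 members rose (all genes 10.3%) and 2 fell (all genes 7.91%). That count of 6 was 10 without the filter on low counts and 11 with DESeq2. The common dispersion of this fit, 0.044, lay below the 0.134 of the ES libraries alone, so its p-values can understate the ES spread. The risers were Col8a2, Col13a1, Col14a1 and Col24a1, with 0 h levels of 2.37 and 1.502, 23.6 and 12.1, 0.710 and 0.447 and 0 and 0.162 CPM, and their day 2 levels are given with their classes. Their rises were 1.45 (SE 0.29), 1.04 (SE 0.29) and 1.31 (SE 0.41) for Col8a2, Col13a1 and Col14a1, and no fold is given for Col24a1, which had no read in 0 h replicate 1.

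Fibrillar chains rose across the control days. From day 2 to day 4, 9 of the 11 rose and 1 fell, with a median of 1.46. From day 4 to day 6, 9 rose and none fell, with a median of 1.11. Col3a1, the type III chain of vessel walls and skin, stood at 2.44 and 2.15 CPM on day 2, 7.66 and 8.15 on day 4 and 289 and 283 on day 6. Its rise of 1.81 (SE 0.09) was followed by one of 5.19 (SE 0.08, adjusted p = 1.7e-16), the largest change of any member at either step. Col1a1, the major chain of type I collagen in bone, tendon and skin, stood at 11.2 and 11.99 CPM on day 2, 15.0 and 14.4 on day 4 and 83.9 and 84.9 on day 6. Its partner chain Col1a2 stood at 8.74 and 10.9 CPM on day 2, 20.04 and 19.8 on day 4 and 57.6 and 58.0 on day 6. Most of the type I increase came between days 4 and 6, when Col1a1 rose by 2.53 (SE 0.12, adjusted p = 1.2e-10) and Col1a2 by 1.55 (SE 0.12, adjusted p = 6.4e-08). Col5a2, of the type V collagen that starts fibril growth, stood at 6.48 and 6.46 CPM on day 2, 17.7 and 18.9 on day 4 and 68.5 and 67.2 on day 6. Col2a1, the type II chain of cartilage and notochord, stood at 12.7 and 11.6 CPM on day 2, 48.5 and 47.9 on day 4 and 98.4 and 108 on day 6. Its fibril partner Col11a1 stood at 5.35 and 6.06 CPM on day 2, 15.5 and 15.5 on day 4 and 38.0 and 33.3 on day 6. These 3 genes rose at both steps, by 1.52 (SE 0.09) and 1.90 (SE 0.08) for Col5a2, 2.01 (SE 0.09) and 1.11 (SE 0.09) for Col2a1, and 1.46 (SE 0.11) and 1.21 (SE 0.10) for Col11a1. Col27a1, a minor fibrillar chain of developing cartilage, stood at 8.86 and 9.90 CPM on day 2, 53.6 and 50.8 on day 4 and 81.8 and 74.6 on day 6. Col24a1, another minor fibrillar chain, stood at 0.375 and 0.871 CPM on day 2, 1.89 and 3.26 on day 4 and 5.29 and 4.61 on day 6. Their rises were larger to day 4, at 2.49 (SE 0.09) and 2.04 (SE 0.30), than from day 4 to day 6, at 0.59 (SE 0.08) and 0.94 (SE 0.24). Col5a1, the major type V chain, stood at 20.9 and 21.2 CPM on day 2, 40.3 and 39.7 on day 4 and 47.4 and 48.8 on day 6, and it rose by 0.94 (SE 0.09) and 0.28 (SE 0.09). Col5a3, the third type V chain, went the other way, at 3.70 and 4.63 CPM on day 2, 1.52 and 1.68 on day 4 and 1.40 and 1.33 on day 6, and its fall from day 2 to day 4 was 1.36 (SE 0.23, adjusted p = 1.1e-04).

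Bases before the start sites of Col3a1, the fibrillar chain that rose most, and of Col5a3, the fibrillar chain that fell, are shown from RefSeq (build GRCm38.p6), 5′ to 3′ on the gene's own strand. Col3a1 lies on the plus strand and its window is chr1:45311288-45311537. Col5a3 lies on the minus strand and its window is chr9:20815068-20815317. Neither window holds an exon of GENCODE vM21. Capitals mark matches, on either strand, to a TATA box (TATAAA), to a CCAAT box with the letters of its name or to a GC box (GGGCGG).
Col3a1: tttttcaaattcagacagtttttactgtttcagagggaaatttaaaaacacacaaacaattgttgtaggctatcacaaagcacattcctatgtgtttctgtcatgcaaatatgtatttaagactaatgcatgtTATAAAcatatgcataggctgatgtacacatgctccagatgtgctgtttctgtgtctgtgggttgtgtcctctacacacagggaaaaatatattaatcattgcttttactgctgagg
Col5a3: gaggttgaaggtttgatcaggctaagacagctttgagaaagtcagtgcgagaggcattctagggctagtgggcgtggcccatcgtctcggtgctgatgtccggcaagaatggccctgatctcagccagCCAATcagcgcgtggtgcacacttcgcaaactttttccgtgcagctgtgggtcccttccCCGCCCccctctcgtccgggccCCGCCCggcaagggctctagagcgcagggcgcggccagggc
The Col3a1 window held 1 TATA box, from 117 to 112 bases before the start, and no other of these motifs. The Col5a3 window held a CCAAT box at 122 to 118 bases before the start, and GC boxes on the opposite strand at 63 to 58 and at 41 to 36. Of 32851 RefSeq promoters, 12.4% held the TATA box letters in the 250 bases before the start, 33.8% a CCAAT box and 32.7% a GC box. Of the 38 promoters that the table holds for 35 collagen genes, 5 held a TATA box, 13 a CCAAT box and 22 a GC box. Such a match is a description of letters and not of a bound site.

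**Figure D2:**
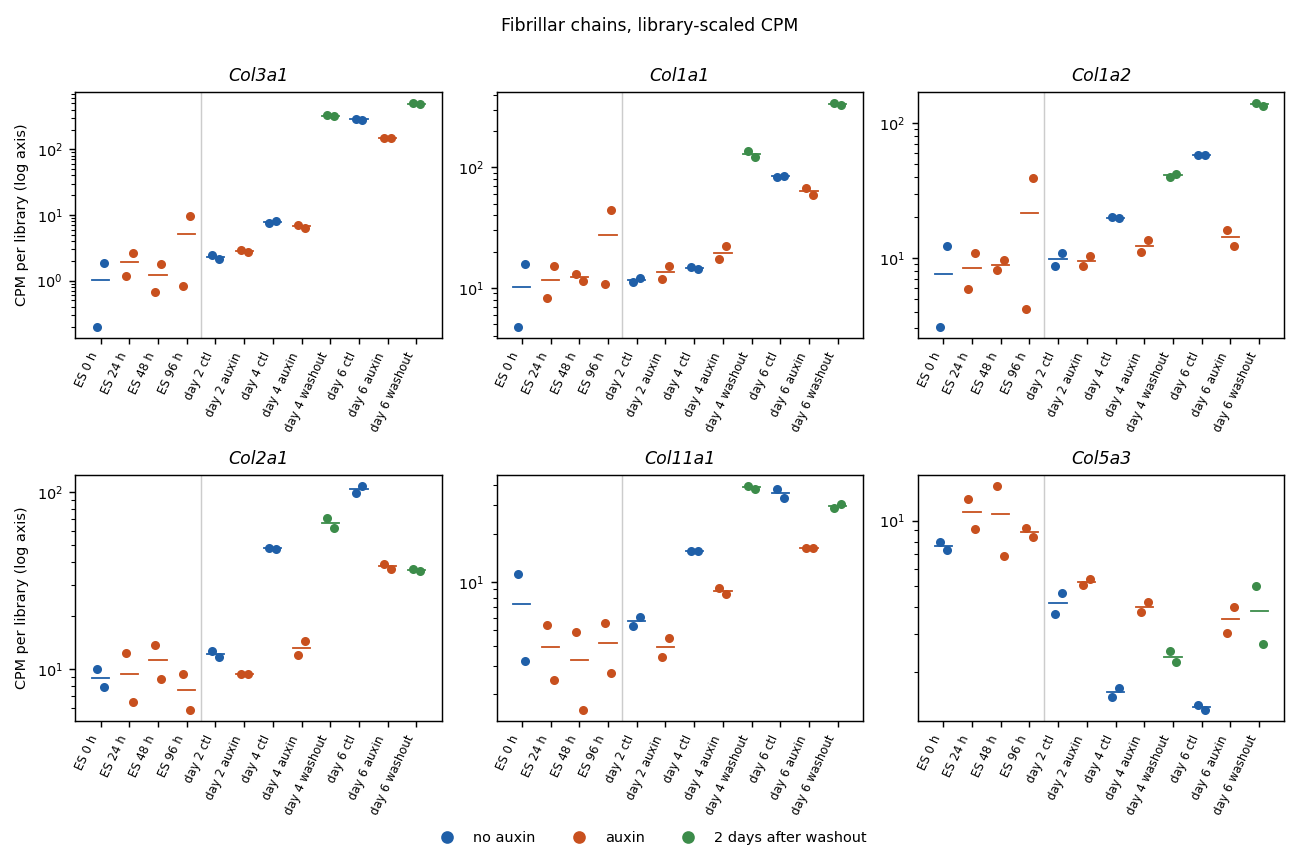
CPM per library (vertical axis, log scale) of 6 fibrillar chains in the 12 groups (horizontal axis). Points are libraries, bars are group means, and colours mark no auxin, auxin and washout. Col3a1, Col1a1 and Col1a2 reach their highest values in the day 6 washout group, while Col5a3 lies lowest in the day 4 and day 6 controls.

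Most network chains that changed in control cells after day 2 rose. From day 2 to day 4, 5 of 9 rose and 1 fell, with a median of 0.75, and from day 4 to day 6, 4 rose and none fell, with a median of 0.52. Col4a1, the main basement membrane chain, stood at 993 and 959.5 CPM on day 2, 5238 and 5134 on day 4 and 4762 and 4266 on day 6. Col4a2, its partner in the same molecule, stood at 462 and 461 CPM on day 2, 3111 and 3059 on day 4 and 2782 and 2510.5 on day 6. Both had fallen from 0 h ES cells to day 2, by 1.04 (SE 0.19, adjusted p = 0.0011) and 1.08 (SE 0.20, adjusted p = 9.3e-04), and rose to day 4 by 2.43 (SE 0.09, adjusted p = 7.2e-13) and 2.76 (SE 0.08, adjusted p = 1.2e-13). Their change from day 4 to day 6, −0.19 (SE 0.08, adjusted p = 0.11) and −0.21 (SE 0.08, adjusted p = 0.06), did not pass. Col4a5 and Col4a6, minor basement membrane chains of smooth muscle and epithelia, rose at both steps. Col4a5 stood at 3.95 and 4.22 CPM on day 2, 12.96 and 12.4 on day 4 and 29.3 and 25.4 on day 6. Col4a6 stood at 0.784 and 1.05 CPM on day 2, 2.27 and 2.09 on day 4 and 4.35 and 4.17 on day 6. The rises were 1.65 (SE 0.15) and 1.11 (SE 0.14) for Col4a5, and 1.26 (SE 0.22) and 0.97 (SE 0.19) for Col4a6. Col8a1 and Col8a2 form the hexagonal type VIII network beneath some endothelia. Col8a1 stood at 1.12 and 1.41 CPM on day 2, 2.21 and 2.03 on day 4 and 4.43 and 4.61 on day 6, rising by 0.75 (SE 0.20) and 1.10 (SE 0.17). Col8a2 stood at 5.66 and 4.78 CPM on day 2, 3.26 and 3.42 on day 4 and 4.79 and 4.72 on day 6, a fall and then a rise, by 0.62 (SE 0.16) and 0.52 (SE 0.16). The kidney-type chains Col4a3 and Col4a4 and the growth plate chain Col10a1 stayed at or below 1.13 CPM in every library. Among the other chains the same held for Col28a1, whose counts ranged from 4 to 51.

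Col4a1 with Col4a2 and Col4a6 with Col4a5 lie head to head, with start sites 21 and 1309 bases apart, on chromosomes 8 and X. Per kb, the ratio of Col4a1 to Col4a2 stayed between 1.41 and 1.91 over the 24 libraries, and across the 12 group means their log2 levels correlated at r = 0.999. The ratio of Col4a5 to Col4a6 was less steady, from 3.76 to 34.4 over the 24 libraries. Its top value came from 48 h ES replicate 2, which held 2 reads of Col4a6. In differentiating cells the ratio ran from 4.76 to 14.7. It stood at 7.997 and 7.22 in day 6 controls and 14.7 and 13.999 in day 6 auxin cells. For Col4a5 and Col4a6 that r was 0.935, from libraries that share depth and scaling with each other. Pairs that do not lie head to head were high as well. Col3a1 and Col5a2, tail to tail on chromosome 1, gave 0.988, and Col1a1 and Col1a2, on different chromosomes, gave 0.920. The GENCODE gene models of Col4a1 and Col4a2 overlap at their starts, and the strand setting of the counting is not given in the sources used here, so reads in that overlap cannot be assigned. Windows before the starts of the X-linked pair, whose members changed together below, are shown because they face each other across their shared stretch. The Col4a6 window, on the minus strand, is chrX:141474077-141474326. The Col4a5 window, on the plus strand, is chrX:141475169-141475384, trimmed to the bases before the earlier of its RefSeq and GENCODE starts. Sequences are from RefSeq, build GRCm38.p6, with the same motifs in capitals.
Col4a6: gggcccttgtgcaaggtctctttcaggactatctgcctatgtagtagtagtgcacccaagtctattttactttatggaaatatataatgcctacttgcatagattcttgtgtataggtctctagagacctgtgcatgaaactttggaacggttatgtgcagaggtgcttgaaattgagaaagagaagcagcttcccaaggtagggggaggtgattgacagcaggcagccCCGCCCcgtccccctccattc
Col4a5: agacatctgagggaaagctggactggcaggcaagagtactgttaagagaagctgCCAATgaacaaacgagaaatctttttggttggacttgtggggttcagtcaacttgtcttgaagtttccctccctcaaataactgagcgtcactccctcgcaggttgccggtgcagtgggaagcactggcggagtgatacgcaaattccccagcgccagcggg
The Col4a6 window held 1 GC box, on the opposite strand at 21 to 16 bases before the start, and the Col4a5 window 1 CCAAT box, at 196 to 192 bases before the RefSeq start.

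Beaded-filament chains fell together early. All 6 type VI genes fell from day 2 to day 4, with a median of −1.33, and from day 4 to day 6, 2 rose and 1 fell. Col6a1, a core chain of the filament in muscle and skin, stood at 6.17 and 6.34 CPM on day 2, 4.23 and 3.55 on day 4 and 3.75 and 3.80 on day 6. Col6a2, the second core chain, stood at 12.2 and 12.97 CPM on day 2, 7.39 and 7.91 on day 4 and 3.84 and 3.68 on day 6, and it fell at both steps, by 0.70 (SE 0.09) and 1.02 (SE 0.10). Col6a3, the third core chain, stood at 1.09 and 1.47 CPM on day 2, 0.669 and 0.727 on day 4 and 0.782 and 0.384 on day 6. The alternatives to Col6a3 fell furthest. Col6a4 stood at 3.58 and 3.32 CPM on day 2, 0.201 and 0.318 on day 4 and 0.179 and 0.247 on day 6. Col6a5 stood at 6.82 and 7.23 CPM on day 2, 1.17 and 0.924 on day 4 and 3.67 and 2.63 on day 6. Col6a6 stood at 1.70 and 2.09 CPM on day 2, 0.636 and 0.439 on day 4 and 0.896 and 1.11 on day 6. The falls to day 4 were 3.69 (SE 0.30, adjusted p = 2.5e-08) for Col6a4 and 2.73 (SE 0.18, adjusted p = 1.7e-09) for Col6a5, and Col6a5 then rose by 1.59 (SE 0.19). Col6a6 fell by 1.81 (SE 0.25) and then rose by 0.92 (SE 0.26). Col6a1 and Col6a3 fell by 0.67 (SE 0.12) and 0.86 (SE 0.32) to day 4, and their later changes of −0.03 and −0.28 did not pass.

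Of the 17 other chains tested, 9 rose and 4 fell from day 2 to day 4, and 5 rose and 5 fell from day 4 to day 6. Col12a1, which decorates type I fibrils under tension, stood at 2.49 and 2.52 CPM on day 2, 23.9 and 26.9 on day 4 and 114 and 104 on day 6, rising by 3.36 (SE 0.12, adjusted p = 4.0e-13) and 2.11 (SE 0.09, adjusted p = 7.4e-11). Col14a1, a related fibril-associated chain, stood at 1.38 and 1.38 CPM on day 2, 3.95 and 3.08 on day 4 and 14.4 and 12.3 on day 6. Col26a1, an EMI-domain protein of developing tissues, stood at 6.90 and 6.16 CPM on day 2, 26.3 and 24.9 on day 4 and 66.8 and 69.5 on day 6. All 3 rose at both steps without overlap between days, Col14a1 by 1.36 (SE 0.15) and 1.94 (SE 0.12) and Col26a1 by 1.99 (SE 0.09) and 1.42 (SE 0.08). Col9a1, of the type IX collagen, stood at 0.750 and 0.331 CPM on day 2, 0.301 and 0.273 on day 4 and 2.05 and 1.54 on day 6. Col25a1, a transmembrane chain that developing motor nerves need to reach muscle, stood at 0.920 and 0.871 CPM on day 2, 1.35 and 1.33 on day 4 and 6.13 and 5.06 on day 6. Col23a1, another transmembrane chain, stood at 1.65 and 2.00 CPM on day 2, 7.11 and 7.05 on day 4 and 8.94 and 8.08 on day 6. Col9a1 and Col25a1 rose mainly from day 4 to day 6, by 2.64 (SE 0.37) and 2.06 (SE 0.16), while Col23a1 rose from day 2 to day 4 by 1.97 (SE 0.12) and its later change, 0.27 (SE 0.10), did not pass. Falls were led by Col13a1, a transmembrane chain of the neuromuscular junction, at 35.6 and 37.3 CPM on day 2, 4.85 and 5.88 on day 4 and 3.47 and 3.11 on day 6. Col9a2 stood at 87.6 and 92.3 CPM on day 2, 21.3 and 20.9 on day 4 and 24.0 and 25.9 on day 6. Col15a1, a relative of Col18a1, stood at 1.64 and 1.05 CPM on day 2, 0.301 and 0.258 on day 4 and 0.782 and 0.384 on day 6. Col16a1, a fibril-associated chain, stood at 3.97 and 3.91 CPM on day 2, 4.70 and 4.94 on day 4 and 2.09 and 1.80 on day 6. From day 2 to day 4 the falls were 2.75 (SE 0.11), 2.08 (SE 0.09) and 2.24 (SE 0.38) for Col13a1, Col9a2 and Col15a1, and from day 4 to day 6 Col16a1 fell by 1.31 (SE 0.13).

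Leaving out 1 library at a time lost some of these calls. From day 2 to day 4, Col16a1, Col1a1, Col25a1, Col6a3, Col7a1, Col8a1 and Col8a2 missed the threshold without at least 1 of the 4 control libraries of those days, at adjusted p from 0.051 to 0.23. From day 4 to day 6 the same was true of Col20a1, Col24a1, Col5a1, Col6a6 and Col8a2, at 0.061 to 0.18. For day 2 against 0 h ES cells, Col13a1, Col14a1 and Col24a1 were lost without 0 h or day 2 libraries (adjusted p 0.069 to 0.2), so Col4a1, Col4a2 and Col8a2 alone of the 6 were called throughout. Markers of several cell types moved over the same days. Their summed levels are given as the lower and the higher library. The sum of 13 mesenchyme markers was 223 and 231 CPM on day 2, 456 and 462 on day 4 and 505 and 523 on day 6. Pdgfra made up most of the day 6 sum, at 323 and 295 CPM in replicates 1 and 2. From day 2 to day 4, 10 of the 13 rose (all genes 27.2%) and 2 fell (all genes 24.8%), with a median of 1.47. From day 4 to day 6, 10 rose (all genes 13.6%) and 1 fell (all genes 13.1%), with a median of 1.34. The 8 primitive and parietal endoderm markers, with Pdgfra in both lists, summed to 721 and 734, 1793 and 1795 and 1430.5 and 1489.9 CPM, and the 8 muscle markers to 22.99 and 25.99, 78.3 and 81.6 and 398 and 407. The 8 neural progenitor markers summed to 74.3 and 84.9, 248 and 261 and 235 and 240.2 CPM. The 8 visceral endoderm markers summed to 383 and 389, 2198 and 2389 and 1647 and 1916 CPM. Of these 8, 7 rose to day 4 and 4 rose from day 4 to day 6, with medians of 2.78 and 0.38, and none fell. No marker of these lists was at 0 in a control group. Their part in the collagen changes was not tested.

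The next question was whether auxin changed collagen chains during differentiation. On day 2, 5 of 43 tested members rose (all genes 9.84%) and 6 fell (all genes 8.43%). On day 4, 11 rose (all genes 11.8%) and 12 fell (all genes 11.8%), with a median of −0.04 beside 0.00. On day 6, 10 rose (all genes 14%) and 17 fell (all genes 15.2%), with a median of −0.31 beside 0.01. Fibrillar chains held 8 of the 17 falls on day 6 and 1 rise, among 11 tested, with a median of −0.57. On day 4 that class had 3 rises and 6 falls. With all 24 libraries fitted together 2, 5 and 8 members kept their calls on days 2, 4 and 6. They were Col14a1 and Col27a1 on day 2, and Col2a1, Col5a3, Col6a2, Col26a1 and Col27a1 on day 4. On day 6 they were Col2a1, Col4a6, Col5a3, Col6a4, Col8a2, Col9a1, Col16a1 and Col26a1.

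**Figure D3:**
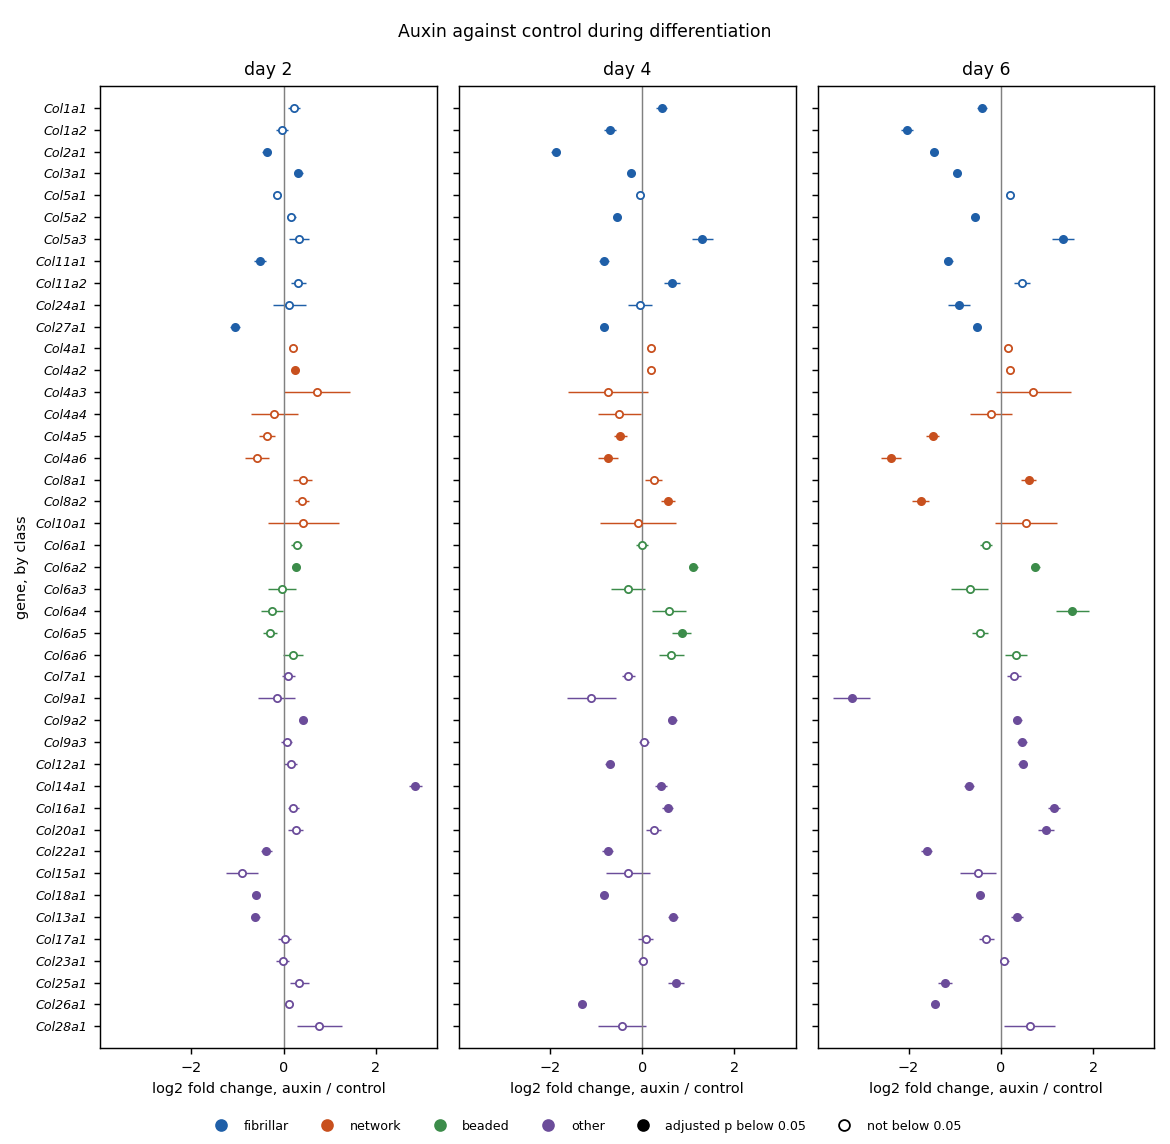
Log2 fold change of auxin against control on days 2, 4 and 6 (horizontal axes) for the 43 tested collagen chain genes (vertical axis, coloured by class). Bars are 1 SE and filled points passed an adjusted p of 0.05. Most filled fibrillar points on day 6 lie left of 0, Col5a3 lies right of it on days 4 and 6, and the day 2 point of Col14a1 lies farthest right.

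Col1a2 was the fibrillar chain most reduced on day 6. It was at 57.6 and 58.0 CPM in controls and 16.2 and 12.3 with auxin, a fall of 2.03 (SE 0.12, adjusted p = 2.9e-09). On day 4 it was at 20.04 and 19.8 CPM without and 10.99 and 13.6 with auxin, a fall of 0.70 (SE 0.13). Its partner Col1a1 moved otherwise. Col1a1 was at 15.0 and 14.4 CPM without and 17.2 and 22.1 with auxin on day 4, and at 83.9 and 84.9 CPM without and 67.8 and 59.5 with auxin on day 6, a rise of 0.42 (SE 0.12) and then a fall of 0.42 (SE 0.11). Per kb, Col1a1 to Col1a2 stood at 2.76 and 2.77 in day 6 controls and at 7.93 and 9.13 with auxin, the highest ratios of any group. On day 4 these ratios were 1.42 and 1.37 without and 2.97 and 3.09 with auxin. The Col1a1 call of day 4 was lost without auxin replicate 2 (adjusted p = 0.28) or either control library, and that of day 6 without auxin replicate 2 (adjusted p = 0.097).

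Col3a1 was at 289 and 283 CPM in day 6 controls and 149.9 and 149 with auxin, a fall of 0.95 (SE 0.06, adjusted p = 8.1e-09). On day 4, at 7.66 and 8.15 CPM without and 7.15 and 6.36 with auxin, its fall of 0.24 (SE 0.08) was lost without 1 library in 3 of 4 cases (adjusted p up to 0.32). Col2a1 was the most reduced on day 4. It stood at 48.5 and 47.9 CPM without and 12.1 and 14.3 with auxin, a fall of 1.87 (SE 0.09, adjusted p = 4.5e-10), and on day 6 at 98.4 and 108 CPM without and 39.4 and 36.9 with auxin, a fall of 1.45 (SE 0.09, adjusted p = 2.5e-09). On day 2 it stood at 12.7 and 11.6 CPM without and 9.37 and 9.33 with auxin, a fall of 0.36 (SE 0.10). Col11a1 fell on all 3 days. It stood at 5.35 and 6.06 CPM without and 3.42 and 4.51 with auxin on day 2, 15.5 and 15.5 CPM without and 9.17 and 8.38 with auxin on day 4, and 38.0 and 33.3 CPM without and 16.2 and 16.4 with auxin on day 6, with falls of 0.51 (SE 0.12), 0.83 (SE 0.11) and 1.14 (SE 0.10). Col27a1 also fell on all 3 days and most on day 2. It stood at 8.86 and 9.90 CPM without and 4.21 and 4.76 with auxin on day 2, at 53.6 and 50.8 CPM without and 28.1 and 31.2 with auxin on day 4, and at 81.8 and 74.6 CPM without and 58.9 and 51.8 with auxin on day 6, with falls of 1.05 (SE 0.10, adjusted p = 1.9e-06), 0.82 (SE 0.08) and 0.51 (SE 0.08).

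Col5a3 rose on both later days. It stood at 1.52 and 1.68 CPM without and 3.78 and 4.19 with auxin on day 4 and at 1.40 and 1.33 CPM without and 3.02 and 3.96 with auxin on day 6, rises of 1.31 (SE 0.24, adjusted p = 5.7e-04) and 1.34 (SE 0.24, adjusted p = 4.0e-04). Col5a2 stood at 11.6 and 13.5 CPM with auxin on day 4 and 46.5 and 45.6 on day 6, falls of 0.55 (SE 0.09) and 0.57 (SE 0.08). Col5a1, the remaining type V chain, stood at 38.1 and 39.9 CPM with auxin on day 4. On day 6 it stood at 47.4 and 48.8 CPM in controls and 55.5 and 56.2 with auxin, and its change of 0.20 (SE 0.09, adjusted p = 0.095) did not pass. The type V chains therefore differed in direction under auxin, with Col5a3 above and Col5a2 below its controls. Col11a2, the second type XI chain, stood at 3.53 and 4.62 CPM without and 5.98 and 6.81 with auxin on day 4, a rise of 0.64 (SE 0.17). Col24a1 stood at 5.29 and 4.61 CPM without and 2.99 and 2.31 with auxin on day 6, a fall of 0.91 (SE 0.24). On day 2, Col3a1 stood at 2.44 and 2.15 CPM without and 2.95 and 2.74 with auxin, a rise of 0.32 (SE 0.10, adjusted p = 0.038) that DESeq2 did not call.

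Among network chains, the abundant pair had no call on days 4 and 6. Col4a1 stood at 6139 and 5719 CPM with auxin on day 4 and 5064 and 5073 on day 6. Col4a2 stood at 3598 and 3465 CPM with auxin on day 4 and 3091 and 3039 on day 6. Col4a1 changed by 0.19 (SE 0.08, adjusted p = 0.13) on day 4 and 0.16 (SE 0.08, adjusted p = 0.18) on day 6, and Col4a2 by 0.19 (SE 0.08, adjusted p = 0.11) and 0.20 (SE 0.08, adjusted p = 0.07). On day 2 Col4a2 stood at 462 and 461 CPM without and 480.1 and 615 with auxin, a rise of 0.26 (SE 0.08) that was lost without day 2 auxin replicate 2 (adjusted p = 0.29). The X-linked pair fell. Col4a5 stood at 29.3 and 25.4 CPM in day 6 controls and 10.4 and 9.35 with auxin, a fall of 1.48 (SE 0.14, adjusted p = 4.1e-07). Col4a6 stood at 4.35 and 4.17 CPM without and 0.843 and 0.793 with auxin, a fall of 2.39 (SE 0.22, adjusted p = 2.9e-07). On day 4 Col4a5 was at 12.96 and 12.4 CPM without and 8.90 and 9.46 with auxin and Col4a6 at 2.27 and 2.09 CPM without and 1.43 and 1.21 with auxin, smaller falls of 0.48 (SE 0.14) and 0.73 (SE 0.21). Col8a2 changed direction between the days. It stood at 3.26 and 3.42 CPM without and 4.33 and 5.55 with auxin on day 4, a rise of 0.56 (SE 0.16), and at 4.79 and 4.72 CPM without and 1.39 and 1.48 with auxin on day 6, a fall of 1.74 (SE 0.18, adjusted p = 1.2e-06). Col8a1 stood at 4.43 and 4.61 CPM without and 6.82 and 6.99 with auxin on day 6, a rise of 0.60 (SE 0.16).

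Beaded chains showed rises and no fall that passed on days 4 and 6. Col6a2 stood at 7.39 and 7.91 CPM without and 15.4 and 17.8 with auxin on day 4, and at 3.84 and 3.68 CPM without and 6.46 and 6.27 with auxin on day 6, rises of 1.11 (SE 0.09, adjusted p = 1.8e-07) and 0.75 (SE 0.10, adjusted p = 3.5e-05). Its fellow core chain Col6a1 stood at 3.82 and 3.95 CPM with auxin on day 4 and 3.37 and 2.67 on day 6. Col6a1 changed by −0.01 (SE 0.13, adjusted p = 0.98) on day 4 and −0.33 (SE 0.13, adjusted p = 0.068) on day 6, neither of which passed. Col6a5 stood at 1.17 and 0.924 CPM without and 1.78 and 2.00 with auxin on day 4, a rise of 0.85 (SE 0.20). Col6a4, under 1 CPM in both day 6 groups, rose by 1.54 (SE 0.36). On day 2 Col6a2 stood at 12.2 and 12.97 CPM without and 14.8 and 15.4 with auxin, a rise of 0.27 (SE 0.09, adjusted p = 0.048) that no analysis without 1 of the 4 libraries kept.

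Col14a1 had the largest change of any member on day 2. It stood at 1.38 and 1.38 CPM in controls and 9.39 and 10.5 with auxin, a rise of 2.86 (SE 0.14, adjusted p = 6.6e-10). On day 4 it stood at 3.95 and 3.08 CPM without and 4.60 and 4.74 with auxin, a rise of 0.41 (SE 0.13) that was lost without day 4 control replicate 2 (adjusted p = 0.35) or either auxin library. On day 6 it stood at 14.4 and 12.3 CPM without and 8.06 and 8.58 with auxin, a fall of 0.69 (SE 0.11, adjusted p = 1.3e-04). The related chain Col12a1 reversed in the other sense. It stood at 23.9 and 26.9 CPM without and 15.6 and 15.7 with auxin on day 4, a fall of 0.71 (SE 0.10, adjusted p = 3.4e-05), and at 114 and 104 CPM without and 141 and 164 with auxin on day 6, a rise of 0.47 (SE 0.09, adjusted p = 5.6e-04).

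Col18a1 was lower with auxin on every day. It stood at 451 and 453 CPM without and 279 and 310.0 with auxin on day 2, at 472 and 471 CPM without and 253 and 279.9 with auxin on day 4, and at 316 and 329 CPM without and 244 and 233 with auxin on day 6, falls of 0.61 (SE 0.07, adjusted p = 1.2e-05), 0.83 (SE 0.07, adjusted p = 1.8e-07) and 0.45 (SE 0.07, adjusted p = 1.1e-04). Part of Col18a1 overlaps Slc19a1 on the opposite strand. Col26a1 fell on both later days. It stood at 26.3 and 24.9 CPM without and 9.89 and 10.9 with auxin on day 4 and at 66.8 and 69.5 CPM without and 25.4 and 25.5 with auxin on day 6, falls of 1.31 (SE 0.09, adjusted p = 1.0e-08) and 1.43 (SE 0.08, adjusted p = 1.3e-09). Col22a1, a chain of the muscle-tendon junction, fell on all 3 days. It stood at 11.5 and 12.6 CPM without and 8.32 and 10.1 with auxin on day 2, 24.9 and 23.4 CPM without and 12.95 and 15.9 with auxin on day 4 and 23.5 and 22.7 CPM without and 8.05 and 7.19 with auxin on day 6, falls of 0.37 (SE 0.12), 0.75 (SE 0.11) and 1.61 (SE 0.12). Col9a1 stood at 2.05 and 1.54 CPM in day 6 controls and 0.198 and 0.180 with auxin, a fall of 3.24 (SE 0.40, adjusted p = 9.9e-06). Col25a1 stood at 1.35 and 1.33 CPM without and 2.40 and 2.09 with auxin on day 4 and at 6.13 and 5.06 CPM without and 2.46 and 2.38 with auxin on day 6, a rise of 0.73 (SE 0.18) and then a fall of 1.22 (SE 0.15).

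Several fibril-associated and transmembrane chains rose with auxin. Col16a1 stood at 2.09 and 1.80 CPM in day 6 controls and 4.21 and 4.42 with auxin, a rise of 1.14 (SE 0.13, adjusted p = 5.0e-06). Col20a1, a little-studied fibril-associated chain, stood at 3.32 and 2.76 CPM without and 6.16 and 5.89 with auxin, a rise of 0.98 (SE 0.17, adjusted p = 2.8e-04). Col9a2 stood at 87.6 and 92.3 CPM without and 119 and 119.8 with auxin on day 2, a rise of 0.42 (SE 0.09), and it rose by 0.65 (SE 0.09) on day 4, to 32.0 and 34.6 CPM, and 0.36 (SE 0.09) on day 6, to 36.1 and 28.3. Col13a1 stood at 35.6 and 37.3 CPM without and 24.9 and 22.6 with auxin on day 2, a fall of 0.61 (SE 0.10), and at 4.85 and 5.88 CPM without and 8.40 and 8.71 with auxin on day 4, a rise of 0.66 (SE 0.11). Leaving out 1 library at a time cost calls on each day. They were Col11a1, Col22a1, Col2a1, Col3a1, Col4a2, Col6a2 and Col9a2 on day 2 (adjusted p 0.052 to 0.39), Col11a2, Col14a1, Col1a1, Col25a1, Col3a1, Col4a5, Col4a6, Col6a5 and Col8a2 on day 4 (0.053 to 0.35) and Col13a1, Col1a1, Col24a1, Col8a1, Col9a2 and Col9a3 on day 6 (0.061 to 0.28), each lost without at least 1 of the 4 libraries compared.

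**Figure D4:**
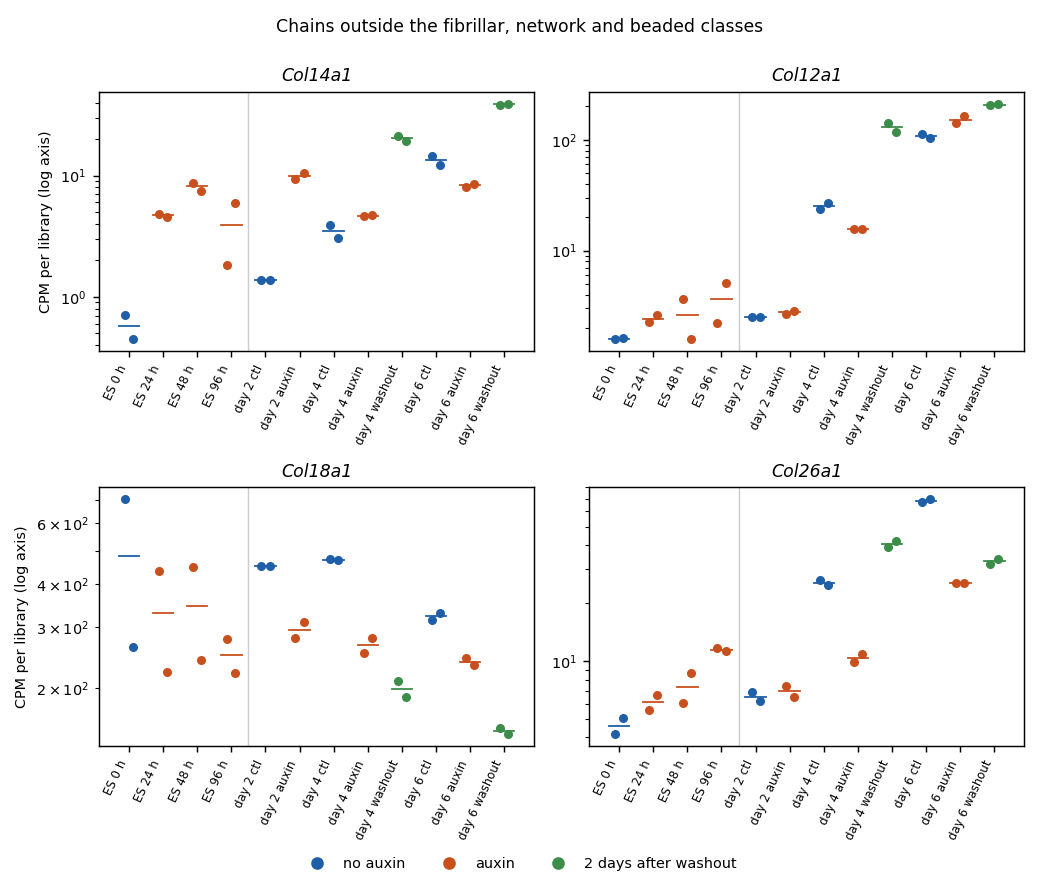
CPM per library (vertical axis, log scale) of Col14a1, Col12a1, Col18a1 and Col26a1 in the 12 groups (horizontal axis). Points are libraries, bars group means, and colours mark no auxin, auxin and washout. Col14a1 is higher with auxin on day 2 and lower on day 6, Col12a1 goes the opposite way between days 4 and 6, and Col18a1 is lower with auxin on each day.

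Whether the auxin change itself differed between day 4 and day 6 was tested as a difference of the log2 fold changes. It was more positive on day 6 for 2 members (all genes 2.05%) and more negative for 10 (all genes 2.19%). The positive members were Col12a1, by 1.18 (SE 0.13, adjusted p = 4.2e-05), and Col18a1, by 0.38 (SE 0.10, adjusted p = 0.037). Negative members included the fibrillar chains Col1a2 at −1.33 (SE 0.17, adjusted p = 2.4e-04), Col1a1 at −0.84 (SE 0.16, adjusted p = 0.0055) and Col3a1 at −0.71 (SE 0.10, adjusted p = 4.8e-04). Among network chains they were Col8a2 at −2.30 (SE 0.24, adjusted p = 2.8e-05), Col4a6 at −1.65 (SE 0.31, adjusted p = 0.0046) and Col4a5 at −1.002 (SE 0.20, adjusted p = 0.0071). Col6a5, Col14a1, Col22a1 and Col25a1 completed the set. With all 24 libraries fitted together Col8a2 alone kept its call, without the day 2 groups 19 members passed in place of 12, and leaving out 1 library at a time lost Col18a1 and Col6a5 (adjusted p 0.057 to 0.2).

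Markers moved with these changes. In day 6 cells the summed mesenchyme markers were 505 and 523 CPM without and 566 and 578 with auxin, while 8 of the 13 fell and 1 rose. Most of that sum was Pdgfra, also in the endoderm list, which went from 323 and 295 to 432 and 447 CPM. Lum, a proteoglycan of collagen fibrils, stood at 12.3 and 11.4 CPM without auxin and 3.04 and 2.85 with it (log2 fold change −2.02, SE 0.14, adjusted p = 3.0e-08). Osr1, a mesoderm transcription factor, stood at 38.2 and 40.0 CPM without auxin and 11.7 and 10.96 with it (log2 fold change −1.80, SE 0.11, adjusted p = 2.2e-09). Summed neural progenitor markers were 235 and 240.2 CPM without and 153 and 161 with auxin, with 1 of 8 higher and 7 lower. Neuron markers summed to 261 and 273 without and 24.2 and 24.4 with auxin, with all 8 lower, and pluripotency markers to 417 and 436 without and 793 and 809 with auxin, with 7 of 8 higher. Muscle markers were 398 and 407 without and 709 and 720.2 with auxin (4 of 8 higher), and primitive and parietal endoderm markers 1430.5 and 1489.9 without and 1665 and 1704 with auxin (6 of 8 higher). Most of the muscle sum was Acta2, which went from 332 and 342 to 607 and 611 CPM. For the other lists the sum and the single markers differed. Visceral endoderm markers summed to 1647 and 1916 without and 2135 and 2374 with auxin, while none of 8 rose and Afp and Apob fell, with a median log2 fold change of −0.14. Endothelial markers summed to 48.5 and 49.8 without and 81.1 and 81.8 with auxin, with 2 of 8 higher, 2 lower (Kdr and Emcn) and a median of −0.13. Pecam1, an adhesion protein of endothelium and ES cells, alone went from 20.3 and 21.4 to 57.3 and 56.5 CPM. Cartilage markers summed to 71.9 and 73.6 without and 44.9 and 47.8 with auxin, with 3 of 8 higher, 4 lower and a median of −0.05. Comp and Acan were among the higher ones. Hapln1, among the lower ones, went from 17.5 and 16.3 to 5.07 and 5.91 CPM (log2 fold change −1.63, SE 0.19, adjusted p = 3.9e-06). On day 4 the mesenchyme sum was 456 and 462 without and 448 and 456 with auxin, with 1 rise and 4 falls, and the neural progenitor sum 248 and 261 without and 137 and 144 with auxin. In day 4 auxin cells Emcn and Myod1 were at 0. The part of cell composition in the collagen changes was not tested.

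Genes that process collagen moved in both directions under auxin. Of 19 enzymes and chaperones that modify the chains in the endoplasmic reticulum, 5 rose and 3 fell on day 4, and 5 rose and 5 fell on day 6, with medians of 0.12 and −0.08 beside 0.00 and 0.01 for all genes. Here and for the lists that follow, the shares of all genes were 11.8% higher and 11.8% lower on day 4, and 14% higher and 15.2% lower on day 6. P4ha2, a prolyl hydroxylase subunit, stood on day 6 at 140.1 and 129 CPM without auxin and 248 and 241 with it (log2 fold change 0.85, SE 0.06, adjusted p = 8.1e-09). P3h3, a prolyl 3-hydroxylase family member, stood on day 6 at 14.4 and 13.1 CPM without auxin and 10.2 and 7.41 with it (log2 fold change −0.65, SE 0.11, adjusted p = 3.5e-04). Crtap, a cofactor of prolyl 3-hydroxylation, stood on day 6 at 127 and 129.7 CPM without auxin and 173 and 166 with it (log2 fold change 0.39, SE 0.07, adjusted p = 3.5e-04). On day 4 P4ha3 stood at 21.3 and 21.003 CPM without auxin and 13.01 and 14.2 with it (log2 fold change −0.64, SE 0.08, adjusted p = 2.1e-05). Of 8 genes for procollagen export, 4 rose and none fell on each day, with medians of 0.19 and 0.21. Creb3l1, a transcription factor of collagen-secreting bone cells, stood on day 4 at 13.3 and 15.0 CPM without auxin and 23.3 and 22.4 with it (log2 fold change 0.68, SE 0.08, adjusted p = 1.2e-05). Its relative Creb3l2, a transcription factor of secretory cells, stood on day 6 at 266 and 265 CPM without auxin and 387 and 398 with it (log2 fold change 0.55, SE 0.09, adjusted p = 2.4e-04). Sec24d, a coat protein of export vesicles, stood on day 6 at 98.1 and 96.9 CPM without auxin and 133 and 129.97 with it (log2 fold change 0.42, SE 0.08, adjusted p = 3.7e-04). The 14 genes for processing and cross-linking gave 3 rises and 2 falls on each day. These counts were not far from the shares of all genes, and the medians were 0.001 and −0.006. Lox, which cross-links fibrils, stood on day 6 at 3.19 and 2.85 CPM without auxin and 8.76 and 7.69 with it (log2 fold change 1.44, SE 0.18, adjusted p = 8.5e-06). Loxl1 stood at 7.25 and 8.63 CPM without auxin and 20.5 and 18.96 with it (log2 fold change 1.30, SE 0.11, adjusted p = 1.5e-07). Loxl2 went the other way, at 56.3 and 49.6 CPM without auxin and 30.5 and 31.7 with it (log2 fold change −0.78, SE 0.08, adjusted p = 1.1e-06).

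Of 8 genes for collagen breakdown, Mmp2, Timp2 and Mmp14 fell and none rose on each day, with medians of −0.15 and −0.29. Mmp2, a gelatinase, stood on day 6 at 58.5 and 61.4 CPM without auxin and 28.0 and 27.4 with it (log2 fold change −1.13, SE 0.08, adjusted p = 8.1e-09). Timp2, a metalloproteinase inhibitor, stood at 69.2 and 72.2 CPM without auxin and 40.5 and 43.2 with it (log2 fold change −0.77, SE 0.09, adjusted p = 3.7e-06). Mmp14, the membrane protease that activates Mmp2, stood at 52.5 and 53.0 CPM without auxin and 34.3 and 34.1 with it (log2 fold change −0.64, SE 0.08, adjusted p = 1.3e-05). Of 9 tested receptors, none rose and 3 fell on day 4, and 3 rose and 3 fell on day 6, with medians of −0.08 and −0.23. Itga2, an integrin subunit that binds collagen, stood on day 4 at 4.78 and 4.73 CPM without auxin and 1.17 and 0.971 with it (log2 fold change −2.16, SE 0.20, adjusted p = 5.0e-07). Itga11, the integrin subunit of fibroblasts that binds fibrillar collagen, stood on day 6 at 0.652 and 0.604 CPM without auxin and 1.87 and 1.64 with it (log2 fold change 1.47, SE 0.25, adjusted p = 2.0e-04). Ddr2, a receptor kinase for fibrillar collagen, stood on day 6 at 19.03 and 16.2 CPM without auxin and 34.4 and 34.6 with it (log2 fold change 0.96, SE 0.12, adjusted p = 1.4e-05). Of 13 basement membrane partners, 1 rose and 1 fell on day 4, below the shares of all genes, and 5 rose and 2 fell on day 6, where the falls were near that share. Lama3, an epithelial laminin chain, stood on day 6 at 19.5 and 18.7 CPM without auxin and 31.1 and 33.2 with it (log2 fold change 0.74, SE 0.10, adjusted p = 3.6e-05). Lama2, a laminin chain of muscle, stood on day 6 at 8.01 and 6.43 CPM without auxin and 2.35 and 1.89 with it (log2 fold change −1.77, SE 0.23, adjusted p = 1.8e-05). Hspg2, which encodes perlecan, stood at 860.0 and 768 CPM without auxin and 1304 and 1395 with it (log2 fold change 0.72, SE 0.22, adjusted p = 0.021). In control cells the modifying enzymes gave 16 rises and 1 fall from day 2 to day 4, and 5 rises and 6 falls from day 4 to day 6. For these control steps the shares of all genes were 27.2% higher and 24.8% lower from day 2 to day 4. From day 4 to day 6 they were 13.6% higher and 13.1% lower. Basement membrane partners gave 11 rises and 1 fall, and then 1 rise and 6 falls. Breakdown genes gave 4 rises and 1 fall, and then 5 rises and no fall.

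Washout asked what the chains did once auxin was removed. Day 4 washout cells, harvested 2 days after removal, were set against day 6 cells kept in auxin, and 20 of 43 members rose (all genes 17.3%) and 4 fell (all genes 17.3%), with a median of 0.58 beside −0.004. Against day 6 controls, 16 rose (all genes 16.8%) and 6 fell (all genes 17.1%), with a median of 0.26. Both comparisons share the washout libraries. Fibrillar chains gave 7 rises and no fall against auxin, and 5 rises and 2 falls against controls. With all 24 libraries together 7 of the 24 and 4 of the 22 calls remained.

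Col1a2 stood at 40.0 and 41.9 CPM after day 4 washout, 1.54 (SE 0.12, adjusted p = 1.1e-07) above day 6 auxin cells and 0.49 (SE 0.12) below day 6 controls on the log2 scale. It thus lay between the auxin and the control libraries. Col2a1 also lay between them, at 71.0 and 62.5 CPM, 0.83 (SE 0.09) above auxin and 0.62 (SE 0.09) below control. Col1a1 exceeded its controls. It stood at 137 and 123 CPM, 1.05 (SE 0.11, adjusted p = 1.7e-06) above auxin and 0.63 (SE 0.11, adjusted p = 2.3e-04) above control. Col3a1 stood at 330.0 and 318 CPM, 1.14 (SE 0.06, adjusted p = 2.2e-09) above auxin, and its rise of 0.19 (SE 0.06, adjusted p = 0.03) over control was lost without any 1 of the 4 libraries. Col11a1 stood at 39.7 and 37.9 CPM and Col27a1 at 109 and 109, rises of 1.27 (SE 0.10) and 1.00 (SE 0.08) over auxin. Col27a1 lay 0.49 (SE 0.08) above control. Col5a1 at 62.3 and 55.0 CPM and Col5a3 at 2.48 and 2.21 lay 0.30 (SE 0.09) and 0.79 (SE 0.25) above control. The Col5a3 call was lost without any 1 of the 4 libraries, and the Col5a1 call without some of them.

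The X-linked pair rose again after day 4 washout. Col4a5 stood at 27.3 and 27.0 CPM and Col4a6 at 3.90 and 3.93 after day 4 washout, rises of 1.48 (SE 0.14, adjusted p = 6.1e-07) and 2.28 (SE 0.22, adjusted p = 8.3e-07) over auxin. Against day 6 controls neither passed (adjusted p = 1 and 0.68). Col8a2 stood at 2.61 and 2.02 CPM, 0.71 (SE 0.19) above auxin and 1.03 (SE 0.17, adjusted p = 1.7e-04) below control. Col4a1 stood at 5145 and 5130.0 CPM without a call in either comparison. Col4a2, at 3161 and 3177 CPM, lay 0.27 (SE 0.08) above control. Of the beaded chains, Col6a1 stood at 6.44 and 7.14 CPM, Col6a2 at 5.91 and 6.62 and Col6a5 at 5.47 and 4.76. In day 6 auxin cells Col6a5 stood at 2.28 and 2.36 CPM. Col6a1 and Col6a5 rose over auxin by 1.19 (SE 0.13, adjusted p = 2.2e-06) and 1.16 (SE 0.17, adjusted p = 6.1e-05), and all 3 lay above control, by 0.86 (SE 0.12), 0.75 (SE 0.11) and 0.71 (SE 0.16). Col4a5 thus lay between its control values and Col4a6 just below them, while these beaded chains lay above theirs.

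Col9a1, at 1.80 and 2.72 CPM, and Col25a1, at 13.02 and 12.2, rose over auxin by 3.58 (SE 0.40, adjusted p = 3.9e-06) and 2.40 (SE 0.15, adjusted p = 7.8e-09). Col25a1 was also 1.18 (SE 0.14, adjusted p = 6.4e-06) above control. Col14a1 stood at 21.3 and 19.1 CPM, a rise of 1.30 (SE 0.11, adjusted p = 1.8e-07) over auxin. Col26a1 stood at 39.0 and 41.9 CPM, 0.69 (SE 0.08) above auxin and 0.74 (SE 0.08, adjusted p = 2.3e-06) below control. Col22a1 stood at 10.3 and 12.1 CPM, 0.58 (SE 0.12) above auxin and 1.03 (SE 0.12, adjusted p = 3.8e-06) below control, so it too lay between the auxin and control libraries. Col13a1 stood at 7.06 and 6.24 CPM, Col17a1 at 3.52 and 5.03, Col20a1 at 5.66 and 5.95 and Col16a1 at 3.37 and 3.33. Col13a1 rose over both, by 0.68 (SE 0.12) over auxin and 1.03 (SE 0.12) over control. In day 6 auxin cells Col13a1 was at 4.38 and 4.02 and Col17a1, which anchors epithelia through hemidesmosomes, at 2.69 and 3.08 CPM. Col17a1 rose over auxin by 0.59 (SE 0.16), and Col20a1 and Col16a1 lay 0.95 (SE 0.17) and 0.80 (SE 0.14) above control. Col12a1 stood at 141 and 119 CPM and Col9a2 at 30.2 and 31.7. Col18a1 stayed low, at 209 and 189 CPM, 0.24 (SE 0.07) below auxin and 0.69 (SE 0.07, adjusted p = 1.3e-06) below control. Cell type markers moved with day 4 washout as well. Against day 6 auxin cells, 8 of 13 mesenchyme markers were higher and 2 lower, and 6 of 8 neuron markers were higher. Against day 6 controls, 8 of 8 neuron and 6 of 8 neural progenitor markers were lower, and 8 of 8 pluripotency markers were higher. The muscle sum was 642 and 689.8 CPM after day 4 washout beside 398 and 407 in day 6 controls, with 4 of 8 higher. None of the markers of these lists was at 0 in the 3 groups, and their part was not tested. Without 1 library, Col16a1, Col17a1, Col18a1, Col6a3, Col6a4, Col8a2 and Col9a3 lost their calls against auxin (adjusted p 0.050 to 0.35) and Col12a1, Col3a1, Col4a2, Col5a1, Col5a3, Col6a5 and Col9a2 against control (0.055 to 0.4).

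Day 6 washout cells, harvested 2 days after day 6, had no control of the same age, so washout and time cannot be told apart there. Against day 6 auxin cells, 25 of 43 members rose (all genes 20.4%) and 4 fell (all genes 19.9%), with a median of 0.86 beside −0.0006, and 15 of the 29 calls remained with all 24 libraries. Col3a1 stood at 509 and 486 CPM, Col1a1 at 344 and 331 and Col1a2 at 142 and 135, the highest of any group for all 3. They rose by 1.75 (SE 0.06, adjusted p = 1.4e-11), 2.42 (SE 0.11, adjusted p = 1.4e-10) and 3.29 (SE 0.13, adjusted p = 2.0e-11). Col5a1, Col5a2 and Col27a1 stood at 160.3 and 140.3, 108 and 100.2 and 112 and 111 CPM, rises of 1.44 (SE 0.09), 1.19 (SE 0.08) and 1.03 (SE 0.08). Col2a1 was apart from them, at 36.5 and 35.6 CPM, a change of −0.07 (SE 0.09, adjusted p = 0.58) that did not pass.

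All 6 beaded chains changed after day 6 washout, 5 up and 1 down, with a median of 2.06. Col6a1 stood at 28.4 and 30.3 CPM, a rise of 3.29 (SE 0.12, adjusted p = 1.4e-11). Col6a2 stood at 34.0 and 36.5 CPM, a rise of 2.48 (SE 0.10, adjusted p = 2.0e-11). Col6a3, low in every other differentiation group, stood at 6.40 and 6.73 CPM beside 0.397 and 0.324 in day 6 auxin cells, a rise of 4.19 (SE 0.33, adjusted p = 5.6e-08). The core chains of type VI collagen were thus each above all 14 other differentiation libraries. Col6a5 and Col6a6, at 7.49 and 6.76 and 2.68 and 2.72 CPM, rose by 1.63 (SE 0.17) and 1.09 (SE 0.22) from 2.28 and 2.36 and 1.45 and 1.10. Among network chains, Col4a5 stood at 33.0 and 29.5 CPM, Col4a6 at 4.60 and 3.70, Col8a1 at 13.6 and 13.4 and Col8a2 at 5.48 and 6.94. Col4a1 at 4746 and 4504 and Col4a2 at 2968 and 2840.0 CPM had no call. Rises of the other network chains were 1.68 (SE 0.14), 2.35 (SE 0.22), 0.99 (SE 0.15) and 2.13 (SE 0.18).

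Col12a1 and Col14a1 reached their highest levels after day 6 washout. Col12a1 stood at 206 and 211 CPM, a rise of 0.47 (SE 0.09), and Col14a1 at 38.3 and 38.9, a rise of 2.23 (SE 0.11, adjusted p = 2.9e-10). Col9a1 at 1.59 and 1.32 CPM, Col15a1 at 1.52 and 1.61 and Col25a1 at 7.96 and 8.29 rose by 2.94 (SE 0.41), 1.94 (SE 0.36) and 1.76 (SE 0.15), Col15a1 from 0.529 and 0.288 CPM. Col9a3, the third type IX chain, fell from 13.3 and 11.5 to 6.94 and 5.72 CPM, by 0.95 (SE 0.11, adjusted p = 5.2e-06). Col16a1 at 9.84 and 9.34 and Col13a1 at 7.54 and 6.79 CPM rose by 1.17 (SE 0.12) and 0.78 (SE 0.12). Col18a1 fell further, to 154 and 147 CPM, by 0.65 (SE 0.07, adjusted p = 1.9e-06), its lowest level of any group. Col26a1 at 32.1 and 34.0 CPM rose by 0.39 (SE 0.08), and Col9a2 at 31.6 and 29.6 did not pass. Without at least 1 of the 4 libraries compared, Col11a2, Col17a1 and Col6a4 lost their calls (adjusted p 0.052 to 0.26). Beside these changes, summed muscle markers were 709 and 720.2 CPM in day 6 auxin and 1325 and 1346 in day 6 washout cells, and mesenchyme markers 566 and 578 and 573 and 579, with 9 of 13 higher and 2 lower. Visceral endoderm markers summed to 2135 and 2374 CPM in day 6 auxin and 1006 and 1108 in day 6 washout cells, while 4 of 8 were higher and 1 lower, with a median of 0.18. No marker of these 3 lists was at 0, and their part was not tested.

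In ES cells the spread between replicates was wide and edgeR called no member at 24, 48 or 96 h of auxin among the 40 tested, as it called 0% of all genes in either direction. At an unadjusted p below 0.05 there were 2, 3 and 4 members, and DESeq2 called 1, 1 and 2. In the fit of all 24 libraries, edgeR called 2, 4 and 8 members. ES replicate numbers marked a shared shift, and with the replicate number as a block 0, 0 and 4 members passed. Col14a1 was the most changed at all 3 times. It stood at 0.710 and 0.447 CPM at 0 h, 4.84 and 4.55 at 24 h, 8.75 and 7.52 at 48 h and 1.84 and 5.99 at 96 h. All 6 auxin libraries lay above both 0 h libraries, which held 18 and 22 reads. The log2 fold changes were 3.04 (SE 0.61, adjusted p = 0.58), 3.82 (SE 0.62, adjusted p = 0.44) and 2.76 (SE 0.60, adjusted p = 0.29). With the block the adjusted p-values were 0.11, 0.050 and 0.043, and DESeq2 gave 1.7e-04, 9.0e-08 and 5.3e-04.

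The other members called with the block at 96 h were Col6a1, Col20a1 and Col26a1. Col26a1 stood at 4.14 and 5.03 CPM at 0 h, 5.59 and 6.63 at 24 h, 6.06 and 8.66 at 48 h and 11.6 and 11.3 at 96 h, a change of 1.32 at an adjusted p of 0.042 with the block. Col6a1 stood at 12.5 and 7.14 CPM at 0 h, 17.3 and 10.6 at 24 h, 22.5 and 18.3 at 48 h and 24.5 and 26.4 at 96 h, a change of 1.43 at an adjusted p of 0.033 with the block. Col20a1 stood at 12.5 and 1.56 CPM at 0 h, 21.9 and 2.02 at 24 h, 17.1 and 3.30 at 48 h and 55.6 and 4.63 at 96 h, a change of 1.88 at an adjusted p of 0.027 with the block. Its 0 h and 96 h libraries overlapped. Its replicates lay far apart in each group, and without 96 h replicate 1 the change without the block was −0.62.

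Levels of the most abundant chains of each class in ES cells complete their range. The remaining group, day 2 auxin cells, held Col4a1 at 969 and 1252 CPM, Col1a1 at 11.8 and 15.1, Col5a1 at 17.05 and 20.8, Col6a1 at 7.27 and 7.85 and Col12a1 at 2.67 and 2.85. Col4a1 stood at 2121 and 1881 CPM at 0 h, 2395 and 1843 at 24 h, 2811 and 1628 at 48 h and 2573 and 3060.4 at 96 h. Col4a2 stood at 1029 and 929.7 CPM at 0 h, 1247 and 933 at 24 h, 1460.4 and 836 at 48 h and 1320.4 and 1652 at 96 h. Col4a5 stood at 5.25 and 1.34 CPM at 0 h, 3.63 and 1.12 at 24 h, 4.58 and 0.948 at 48 h and 3.49 and 1.87 at 96 h. Col4a1 and Col4a2 lay above both 0 h libraries in both 96 h libraries, and at 24 and 48 h the libraries overlapped those at 0 h. Col18a1 stood at 706 and 263 CPM at 0 h, 435 and 223 at 24 h, 448 and 242 at 48 h and 278 and 221 at 96 h, with replicate 1 above replicate 2 at every time. Col9a2 stood at 72.6 and 22.99 CPM at 0 h, 69.2 and 28.4 at 24 h, 87.4 and 33.6 at 48 h and 53.9 and 36.1 at 96 h, with the same order. Col12a1 stood at 1.58 and 1.62 CPM at 0 h, 2.25 and 2.60 at 24 h, 3.61 and 1.601 at 48 h and 2.22 and 5.06 at 96 h, without a call at any time. Fibrillar chains were uneven between replicates. Replicate 2 lay above replicate 1 for Col3a1 at every time and for Col1a1 at 0, 24 and 96 h, while Col5a1 had replicate 1 above at every time. Col1a1 stood at 4.74 and 15.7 CPM at 0 h, 8.26 and 15.2 at 24 h, 13.01 and 11.4 at 48 h and 10.8 and 44.3 at 96 h. Col3a1 stood at 0.197 and 1.85 CPM at 0 h, 1.17 and 2.62 at 24 h, 0.683 and 1.80 at 48 h and 0.825 and 9.51 at 96 h. Col5a1 stood at 37.3 and 24.3 CPM at 0 h, 39.3 and 22.8 at 24 h, 42.7 and 22.4 at 48 h and 43.1 and 33.8 at 96 h. Of the beaded chains, Col6a2 stood at 10.8 and 5.87 CPM at 0 h, 9.26 and 5.59 at 24 h, 11.1 and 6.57 at 48 h and 10.03 and 6.91 at 96 h and showed no separation from 0 h. Col6a5, the leading alternative to Col6a3 per kb, stood at 11.2 and 10.4 CPM at 0 h, 9.47 and 13.1 at 24 h, 6.67 and 12.1 at 48 h and 3.05 and 5.85 at 96 h, with both 96 h libraries below both 0 h libraries at a change of −1.29 (SE 0.44, adjusted p = 0.43). Summed mesenchyme markers in the same cells were 194 and 300.03 CPM at 0 h and 448 and 604 at 96 h, with Osr1 at 0 in the 0 h group. None of the 10 tested was called (all genes 0%), with a median of 0.48 beside −0.03. Primitive and parietal endoderm markers, which share Pdgfra with that list, summed to 601 and 1159 CPM at 0 h and 1056 and 1975 at 96 h. None of those 8 was called, with a median of 0.95. The part of either list was not tested.

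The change with auxin on day 4 was compared with that at 96 h in ES cells, in a fit of all 24 libraries. The common dispersion of that fit, 0.044, lay below the 0.134 of the ES libraries alone, so its p-values can understate the ES spread. It was more positive on day 4 for 1 member (all genes 0.462%) and more negative for 4 (all genes 0.772%). Col6a5 was the positive one, at 2.12 (SE 0.44, adjusted p = 0.023). Col26a1, higher at 96 h in ES cells and lower on day 4, differed by −2.61 (SE 0.25, adjusted p = 9.7e-05). In the fit of the ES libraries alone, its change at 96 h already had a larger SE, 0.35. Col14a1 differed by −2.43 (SE 0.52, adjusted p = 0.026), Col12a1 by −1.91 (SE 0.43, adjusted p = 0.033) and Col2a1 by −1.63 (SE 0.37, adjusted p = 0.035). Without 1 of the ES or day 4 libraries, Col12a1, Col14a1, Col2a1 and Col6a5 were not called (adjusted p 0.055 to 0.19), which leaves Col26a1. Without the filter on low counts 11 members passed in place of 5.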

How the data were processed

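RNA-seq read counts per gene for 24 libraries were used as the authors deposited them, in 1 table. Per the submitters' processing notes, STAR, HTSeq and edgeR were used with build mm10. Which versions, annotation and strand setting they had is not given in the sources used here. In every library 59.6% to 78.0% of the low nonzero counts were even numbers, for a reason not given, so halved counts were tried. The 1 line that names no gene was dropped.

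Genes were kept by edgeR's filterByExpr (minimum count 10, minimum total 15) and scaled by TMM. Tests were edgeR 4.0.16 quasi-likelihood fits (R 4.3.3, limma 3.58.1), apart for the 16 differentiation and the 8 ES libraries, with Benjamini-Hochberg adjustment. Comparisons that cross both sets used all 24 libraries. With 2 libraries per group, the spread was shared across groups. Alternatives were RLE scaling, no filter, halved counts, a replicate block, all 24 libraries together, DESeq2 1.42.0, leaving out each library and, chosen after seeing the data, a fit without the day 2 groups. Pipelines were tested on simulated data.

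Same-numbered libraries deviated together among ES cells (correlation 0.189 to 0.772, over 0.1 in 6 of 6 pairs of groups), and not during differentiation (−0.241 to 0.204, over 0.1 in 2 of 28). Named members were, per class and comparison, up to 6 called genes with the largest changes and a mean of at least 1 CPM, and the 3 highest per kb of each class, plus Col14a1 in ES cells. Exon lengths and gene positions came from GENCODE vM21 and sequences from RefSeq GRCm38.p6. The members and lists were chosen with earlier results of these data known, and marker lists describe cell types without assigning them.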

Additional observations from a re-analysis of the deposited data

Results flagged for a closer look

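Between day 4 and day 6, the auxin change of 12 collagen chain genes differed in edgeR's test of the difference itself, taken as the day 6 minus the day 4 log2 fold change. The difference was 1.18 for Col12a1 and 0.38 for Col18a1. It was −2.30 for Col8a2, −1.95 for Col25a1, −1.65 for Col4a6, −1.33 for Col1a2, −1.30 for Col6a5, −1.10 for Col14a1, −1.002 for Col4a5, −0.86 for Col22a1, −0.84 for Col1a1 and −0.71 for Col3a1. Of these, Col1a1, Col8a2, Col12a1, Col14a1 and Col25a1 passed the test on both days with opposite signs. Leaving out 1 library at a time lost the day 4 calls of Col1a1, Col8a2, Col14a1 and Col25a1, and the day 6 call of Col1a1. With all 24 libraries fitted together, none of them kept its day 4 call.

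Between day 4 of differentiation and 96 h in ES cells, the auxin change of 5 members differed, as the day 4 minus the ES log2 fold change. The difference was 2.12 for Col6a5, −2.61 for Col26a1, −2.43 for Col14a1, −1.91 for Col12a1 and −1.63 for Col2a1. Auxin exposure up to day 4 of differentiation and 96 h in ES cells differ in medium and cell state as well.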

How the results depend on the processing

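Counts of collagen members called moved most with the choice of libraries that share 1 estimate of spread. With all 24 libraries the counts were 23 for day 4 against day 2 controls, 12 for day 6 against day 4, 2, 5 and 8 for auxin on days 2, 4 and 6, 7 and 4 for day 4 washout against auxin and control, 15 for day 6 washout, 2, 4 and 8 for ES cells at 24, 48 and 96 h, and 1 for day 6 minus day 4. Without the day 2 groups that last count was 19. Without the filter on low counts, day 2 against 0 h gave 10, ES cells 1, 1 and 3, and day 4 minus ES 11. DESeq2 gave 11 for day 2 against 0 h and 1, 1 and 2 for ES cells. With the replicate block, which the ES numbers allow, 4 members passed at 96 h, and the block moved no other count by more than 1.5 times. The cause of these shifts was not tested beyond the larger ES spread.

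Leaving out each replicate in turn gave 3 to 7 for day 2 against 0 h, 29 to 33 and 23 for the control steps, 5 to 12, 15 to 20 and 23 to 27 for auxin on days 2, 4 and 6, 18 to 23 and 16 to 18 for day 4 washout, 26 to 28 for day 6 washout, 10 to 12 for day 6 minus day 4, and 1 to 6 for day 4 minus ES. The change of Col20a1 at 96 h in ES cells ran from −0.62 without 96 h replicate 1 to 4.25 without 0 h replicate 1. Among ES cells replicate 1 was shallower, and Col14a1 had few reads at 0 h in both replicates, 18 and 22.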
